A study of Mus musculus with 59 samples.

Results

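The genes described here are the secreted and membrane-bound serine proteases of the mouse uterus whose symbols begin with Prss, Klk or Tmprss and a number. A match on the symbol alone, which used no measured value, gave 83 genes of the 21706 in the tables: 40 Prss genes, 26 Klk genes and 17 Tmprss genes. The choice of these members was made with earlier results of these data known. RNA was sequenced from 59 tissue samples of 29 mice. Control females had the genotype Esr1f/- and knockout females were epiERa-/- (Esr1f/-Wnt7aCre/+). In both genotypes 1 copy of Esr1, the gene of oestrogen receptor alpha, was floxed and the other was null, so the controls had 1 functional copy. In knockouts a Cre recombinase driven by Wnt7a, which is active in uterine epithelium, removed the floxed copy there, while stroma and muscle kept it. Virgin females of about 2 to 6 months were mated with wild-type males, and tissue was taken at day 0.5 (D0.5) or day 3.5 (D3.5) after coitus.

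Each uterus gave up to 3 kinds of sample: LE, the luminal epithelium scraped off after dispase digestion, U, an undigested piece of uterus, and DU, a piece of uterus digested with dispase. LE was sequenced from 9 control and 7 knockout mice at D0.5, and from 4 control and 6 knockout mice at D3.5. U came from 6 control and 4 knockout mice at D0.5 and from 5 and 5 at D3.5. DU came from 4 control and 3 knockout mice at D0.5 and from 3 and 3 at D3.5. Every library of 1 tissue was a different mouse, and LE, U and DU of 1 mouse shared that animal, so the tissues are not independent of each other.

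Trypsin-like serine proteases cut proteins after basic residues with a catalytic triad of histidine, aspartate and serine, and are made as inactive zymogens that another protease activates. The Klk genes encode secreted kallikreins, the Tmprss genes encode proteases anchored in the plasma membrane with the catalytic domain outside the cell, and the Prss genes are a mixed group of secreted and membrane-anchored enzymes. In the uterus such enzymes are known from luminal fluid and gland secretion around implantation, where they act on matrix, on growth factors, on the epithelial sodium channel and, as the implantation serine proteinases Prss28 and Prss29, on the coat of the embryo. Oestrogen dominates the uterus around mating, and progesterone dominates it before the embryo attaches.

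Many of these genes lie side by side. In the RefSeq annotation of GRCm38.p6, 56 of the 82 members with a position were next to another member: 28 of 30 on chromosome 7, 10 of 11 on chromosome 17 and 7 of 7 on chromosome 5. The chromosome 5 row is Tmprss11c, Tmprss11d, Tmprss11a, Tmprss11g, Tmprss11f, Tmprss11b and Tmprss11e, and Prss32 lies on chromosome 17 between Prss41 and Prss21. The promoters below are shown for 4 members that were lower in knockout epithelium at D0.5 (Prss32, Tmprss11g, Tmprss11b and Klk1b21) and for Tmprss11d, a neighbour of Tmprss11g that was not. Each is the stretch of 250 bases before the transcription start in RefSeq, build GRCm38.p6, written 5′ to 3′ on the gene's strand. Capitals mark the oestrogen response half-site GGTCA, or its complement on the other strand, and in Tmprss11d the AP-1 motif.
Prss32, chr17:23853522-23853771, plus strand: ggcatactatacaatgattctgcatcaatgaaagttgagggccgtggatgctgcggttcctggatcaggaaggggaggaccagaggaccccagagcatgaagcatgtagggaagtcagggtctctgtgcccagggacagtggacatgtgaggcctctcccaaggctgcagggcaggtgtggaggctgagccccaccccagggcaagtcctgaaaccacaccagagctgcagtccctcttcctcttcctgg
Tmprss11g, chr5:86518601-86518850, minus strand: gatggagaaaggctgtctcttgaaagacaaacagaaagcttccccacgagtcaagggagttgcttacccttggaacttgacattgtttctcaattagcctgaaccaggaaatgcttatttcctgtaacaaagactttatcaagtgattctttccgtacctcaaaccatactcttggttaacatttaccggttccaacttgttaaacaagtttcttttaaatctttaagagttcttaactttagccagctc
Tmprss11b, chr5:86676299-86676548, minus strand: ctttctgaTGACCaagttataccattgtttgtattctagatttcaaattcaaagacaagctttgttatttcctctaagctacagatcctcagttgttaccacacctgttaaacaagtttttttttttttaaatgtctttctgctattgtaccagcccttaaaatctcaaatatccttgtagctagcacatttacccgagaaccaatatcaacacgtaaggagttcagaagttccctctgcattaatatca
Klk1b21, chr7:44102042-44102291, plus strand: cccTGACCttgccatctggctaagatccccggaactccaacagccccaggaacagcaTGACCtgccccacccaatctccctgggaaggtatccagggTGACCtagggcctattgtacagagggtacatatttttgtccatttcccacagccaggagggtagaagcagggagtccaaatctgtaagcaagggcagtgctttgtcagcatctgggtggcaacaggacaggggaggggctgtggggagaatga
Tmprss11d, chr5:86373388-86373637, minus strand: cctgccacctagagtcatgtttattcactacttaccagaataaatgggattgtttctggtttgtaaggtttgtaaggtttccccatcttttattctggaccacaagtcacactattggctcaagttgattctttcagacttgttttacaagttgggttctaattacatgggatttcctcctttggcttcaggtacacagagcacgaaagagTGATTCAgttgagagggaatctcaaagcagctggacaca

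Motifs were searched on both strands in windows of 300 bases, from 250 before to 50 after the start. RefSeq held such windows for 67 of the 83 symbols, 78 promoters in all. The whole oestrogen response element GGTCANNNTGACC was in 0 of 78 member promoters and in 0.07% of all 32851 promoters. Its half-site GGTCA was in 47.4% of member promoters and 40.5% of all promoters. For Klk1b21 3 half-sites were found, for Tmprss11b 1, and for Prss32 and Tmprss11g 0. The AP-1 motif TGANTCA was in 10.3% of member promoters and 7.81% of all, and the progesterone response element GNACANNNTGTNC was in 0 of 78 and 0.475%. A match or its absence describes only the letters of these windows.

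Levels within a tissue are given as CPM, a gene's counts scaled to a fixed library total after adjustment of library sizes by TMM. Levels of different genes are compared only as TPM, which also divides by transcript length. Changes are log2 fold changes ± SE of edgeR's quasi-likelihood test, and a gene is called where the p-value adjusted over every gene tested in that tissue is under 0.05. The total estimated count per library ran from about 11305100 to 108002000 with a median of 19467400. In bulk tissue, fewer cells of a type and less RNA per cell cannot be told apart. At least 1 group of libraries reached a mean of 10 CPM for 15 members, 16 more reached 1 CPM, 52 stayed below 1 CPM and 5 of those had no count at all. After the filter on low counts 31 members were tested in LE, 29 in U and 27 in DU. A member without counts in a group passed this filter only through other groups, where it was higher.

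The targeted gene Esr1 had 192 ± 57.6 CPM (SD, n = 9) in control LE and 47.3 ± 12.5 (n = 7) in knockout LE at D0.5, and 127 ± 25.8 (n = 4) against 59.7 ± 9.72 (n = 6) at D3.5. Smooth muscle markers summed to 19.7 to 237 CPM in LE and to 5432 to 16221 CPM in U, while the 6 markers of epithelium in general were all higher in control LE than in control U on both days. The 7 stroma markers summed to 434 to 4829 CPM in LE and to 8252 to 16688 CPM in U. The part of stroma in the Esr1 level of LE was not tested. The U library labelled knockout, mouse 33, D3.5, had 212 CPM of Esr1, against 123 to 149 in the other 4 knockout libraries and 135 to 194 in the controls of that day. It also stood apart in the proteases below. A sample exchange and an incomplete deletion cannot be told apart for it, so its place among the knockouts rests on its label alone. Most protease results in U that use the knockouts of D3.5 are given below with and without it. Results for markers and for other gene lists in U are given with it only. Libraries of LE also differed in 12 marker genes of stratified epithelium, the lining of cervix and vagina, of which 0 to 7 had no count in a given LE library. At D3.5 they summed to 10.7 to 77.1 CPM in the controls, to 55.7 to 64.5 in 3 knockout libraries and to 530, 679 and 252 in those of mice 35, 36 and 37. At D0.5 the control of mouse 9 had the highest sum, 432 CPM. Neutrophil markers were higher in knockouts at D0.5, as given below.

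Summed over all members, control LE had 816 ± 84.9 TPM (SD, n = 9) at D0.5 and 691 ± 219 TPM (n = 4) at D3.5, but a different enzyme led on each day. At D0.5 the membrane protease Tmprss4 led with a mean of 260 TPM, ahead of Prss23, a secreted protease, with 108.3 TPM and of Prss22, a tryptase of epithelia, with 92.6 TPM. These 3 genes made up 56.4% of the sum. At D3.5 Prss23 led with 430 TPM, followed by Prss8 with 103 TPM and Tmprss2 with 91.7 TPM, and these 3 made up 90.5% of it. Prss8 is prostasin, an activator of the epithelial sodium channel, and Tmprss2 is a membrane protease of many epithelia. In knockout LE at D0.5 Klk10 (171 TPM) and Prss22 (169 TPM) had the highest means, and the mean of Klk10 rests on mouse 27, with 805 TPM. Without that library Tmprss4 had 132 TPM, Prss22 131 TPM, Prss23 121 TPM and Klk10 65.5 TPM. In knockout LE at D3.5 Tmprss2 led with 193 TPM. U and DU were led by Prss23 in all 8 of their groups, at 88.5 to 174 TPM.

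**Figure D1:**
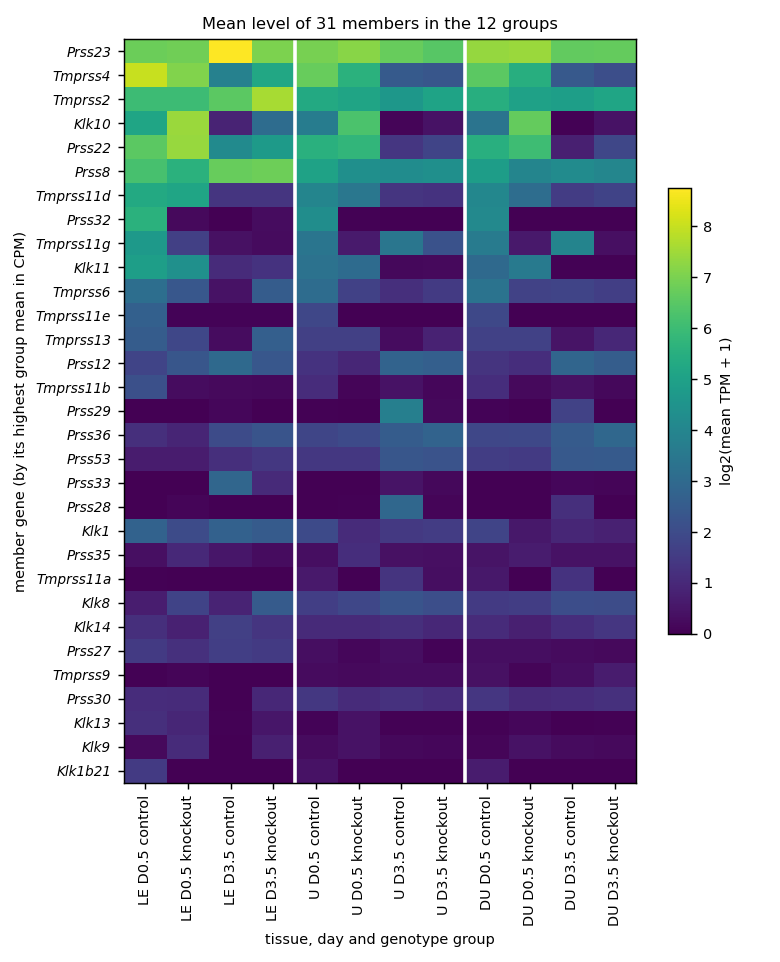
Mean level of the 31 members that reached 1 CPM in at least 1 group, as log2(TPM + 1), in the 12 groups of tissue, day and genotype. Each cell is the mean over the libraries of a group. Tmprss4 and Prss22 are high in LE at D0.5 and Prss23 is high in control LE at D3.5.

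The first comparison asked how loss of the receptor from the epithelium changed these genes in LE at D0.5. Of 31 members tested, 11 were called, 4 higher and 7 lower in knockouts, beside 23.6% of all 15601 genes (10.9% higher, 12.6% lower). The 7 lower members were Prss32, Tmprss11e, Tmprss11b, Tmprss11g, Tmprss4, Prss8 and Klk1b21. The median log2 change of the tested members was -0.54, against -0.01 over all genes. In 6 of the 11 the control and knockout libraries did not overlap, and 6.24% of all genes were called without overlap.

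Prss32 showed the largest fitted fall of the members with counts in both groups. Its 9 control libraries ran from 18.0 to 120 CPM with a median of 68.0, while 4 of the 7 knockout libraries held no count and the highest had 0.657 CPM. The log2 change was -8.43 ± 0.88 with an adjusted p of 3.03e-07. Part of the Prss32 sequence is shared with a neighbouring transcript, since 70.4% of its stretches of 31 bases were in no other annotated gene.

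Of the 7 Tmprss11 genes on chromosome 5, 3 fell in the knockout. These enzymes form the family of the airway trypsin-like protease and sit in the membrane of stratified and airway epithelia. Tmprss11e had 9.49 to 41.4 CPM in the controls (median 13.6) and 0 to 0.492 CPM in the knockouts, a log2 change of -6.71 ± 0.74 (adjusted p = 2.81e-07). Tmprss11g had 38.5 to 96.9 CPM in the controls (median 64.1) and 1.01 to 8.40 in the knockouts (median 5.60), a change of -3.64 ± 0.38 (adjusted p = 1.58e-07). For Tmprss11b the controls had 7.86 to 22.7 CPM and the knockouts 0 to 2.14 CPM, a change of -4.06 ± 0.64 (adjusted p = 3.15e-05). In none of these 3 genes did any knockout library reach the lowest control. Their neighbour Tmprss11d, the airway trypsin-like protease itself, had 95.2 ± 47.6 CPM (SD, n = 9) in the controls and 77.2 ± 39.6 CPM (n = 7) in the knockouts and was not called. The other 3 genes of the row were rare in LE of that day: Tmprss11a had at most 0.255 CPM in a library, Tmprss11c at most 0.293 CPM and Tmprss11f at most 0.444 CPM.

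The other lower members changed less or were rarer. Tmprss4 had 276 to 685 CPM in the controls (median 536) and 172 to 338 CPM in the knockouts (median 237), which is a change of -1.02 ± 0.21 (adjusted p = 0.000738) between ranges that overlap. Prss8 had 57.2 to 178 CPM in the controls and 50.6 to 97.1 CPM in the knockouts, a change of -0.73 ± 0.21 (adjusted p = 0.0123), and the ranges again overlap. The mouse kallikrein Klk1b21 had 1.08 CPM on average in the controls, 0 counts in all 7 knockouts and was at least 59.1-fold lower, taking 3 counts over the knockout group as the floor (adjusted p = 0.00108). Of its 427 counts in all libraries 358 were in these controls, so its place among the tested genes rested mostly on them. Only 44.5% of its stretches of 31 bases are in no other gene and 34.4% are shared with Klk1b24, so the split of counts within the Klk1b genes is uncertain.

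**Figure D2:**
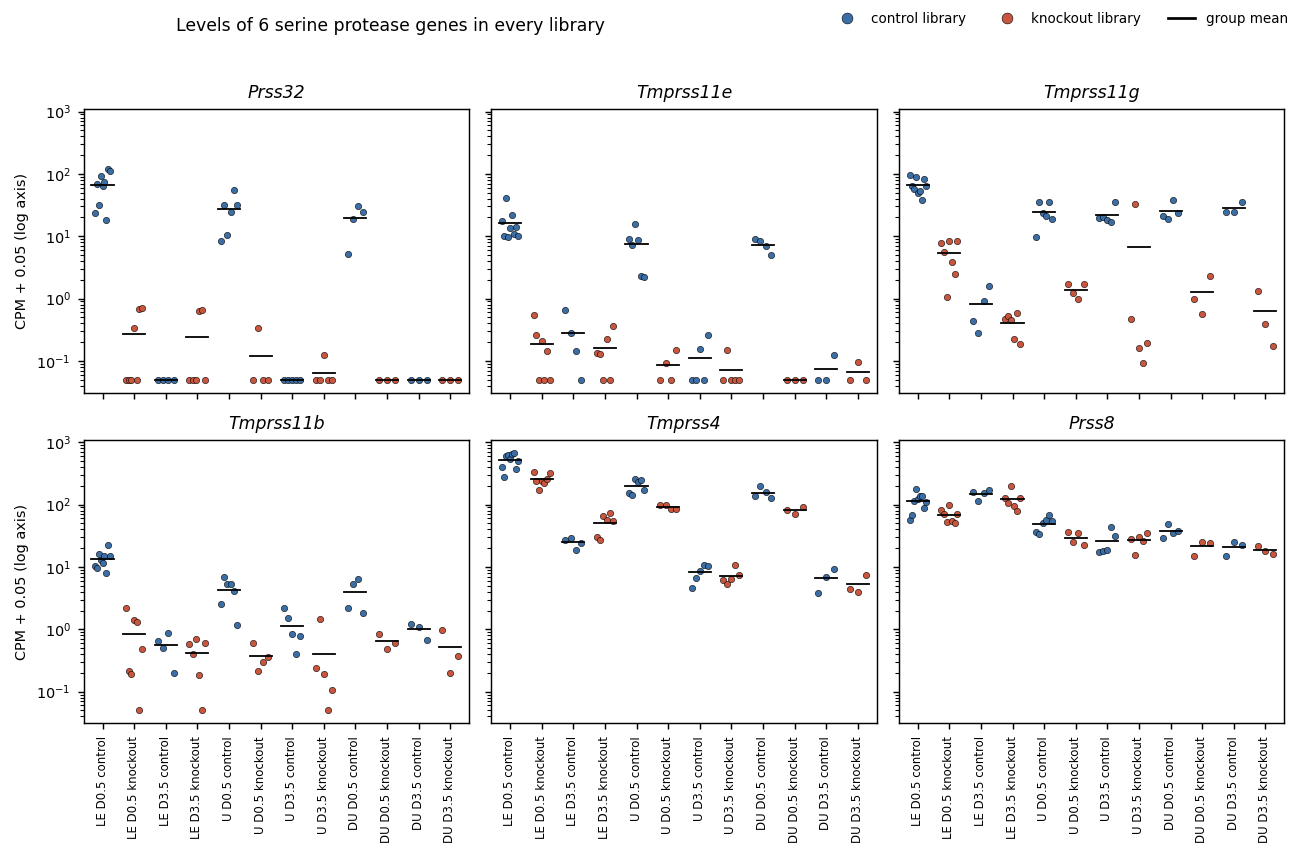
CPM of Prss32, Tmprss11e, Tmprss11g, Tmprss11b, Tmprss4 and Prss8 in every library of the 12 groups, on a log axis after adding 0.05. Points are libraries. At D0.5 the knockout libraries of Prss32 and Tmprss11e lie below 1 CPM in all 3 tissues, while the LE groups of Tmprss4 and of Prss8 overlap.

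The members higher in knockout LE at D0.5 were Klk10, Klk9, Prss35 and Prss33, and the calls for Klk10 and Prss33 did not hold with every library left out. Klk10, a secreted kallikrein, had 8.84 to 72.2 CPM in the controls and 18.7 to 133 CPM in 6 knockouts, with 952 CPM in the knockout of mouse 27. The change was 2.36 ± 0.71 (adjusted p = 0.0153), and without mouse 27 it was 0.85 (adjusted p = 0.327). Klk9, which lies next to Klk10, averaged 0.190 CPM in the controls and 1.30 CPM in the knockouts, a change of 2.72 ± 0.67 (adjusted p = 0.00417). Prss35, a secreted protease-like protein known from the ovary, had 0.411 to 1.39 CPM in the controls and 1.57 to 4.15 CPM in the knockouts (1.76 ± 0.47, adjusted p = 0.00693), with no overlap. Prss33 had 0 counts in all 9 controls and a count in the knockout of mouse 21 alone (0.147 CPM), and its log2 change is 0 without that library. It passed the filter on low counts in LE only through libraries of D3.5. Its call (adjusted p = 0.0404) was also lost without control mouse 4, 6 or 7 (0.0559 to 0.0662), with DESeq2 (0.147) and with limma on TPM (0.926).

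Several abundant members were not called in this comparison. Prss22 had 97.6 ± 80.8 CPM (n = 9) in the controls and 177 ± 153 CPM (n = 7) in the knockouts, and Prss23 had 139 and 149 CPM. Tmprss2 had 178 and 164 CPM and Klk11 had 29.0 and 20.5 CPM. Tmprss6, known in liver as the protease that restrains hepcidin, had 22.9 and 11.2 CPM, and Tmprss13, a membrane protease of epidermis, had 13.8 and 7.33 CPM. Klk1, the tissue kallikrein that frees kinins, had 3.74 and 1.88 CPM (adjusted p = 0.156), and Prss12, neurotrypsin, had 5.58 and 8.55 CPM. A p above the threshold does not show that these levels were equal.

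Cell type markers also moved at D0.5. All 7 tested of 8 neutrophil markers were higher in knockout LE, and their sum was 934 to 3474 CPM there against 3.55 to 399 CPM in the controls. In U the sum was 1577 to 3035 CPM against 75.0 to 953 CPM, and in DU 1232 to 3024 CPM against 80.9 to 636 CPM. Of the 6 general epithelial markers 3 were lower in knockout LE, where the sum had a median of 4816 CPM against 7796 CPM, while 0 of 5 luminal markers was called. Gland markers were higher in 3 of 7 genes in LE (median 1.98), 2 of 7 in U and 3 of 7 in DU. Their sum in LE was 265 to 823 CPM in controls and 255 to 523 CPM in 5 knockouts, with 1439 CPM in mouse 26 and 1461 CPM in mouse 27, the library with the highest Klk10 and Klk11. Of 5 macrophage markers 4 were higher and 1 was lower in knockout LE, where their sum was 115 to 141 CPM against 189 to 428 CPM in controls. The part of these shifts in the protease changes was not tested. Of the 12 markers of stratified epithelium 11 were tested and 3 were lower and 1 higher in knockout LE, with sums of 24.6 to 432 CPM in controls and 13.8 to 264 CPM in knockouts. Without mouse 9 the control sums were at most 92.7 CPM.

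The same question was asked in whole uterus at D0.5. In U 6 of 29 tested members were called, 1 higher and 5 lower, beside 4.98% of all genes (2.02% higher, 2.96% lower). In DU 9 of 27 were called, 1 higher and 8 lower, beside 8.06% (3.89% higher, 4.17% lower). Prss32, Tmprss11b, Tmprss11e and Tmprss4 were the 4 members called lower in LE, U and DU alike, and LE, U and DU shared mice. The share of all genes called lower in LE, U and DU alike was not computed. Without control mouse 5 or knockout mouse 27 the DU count was 5, and the share of all genes called then is not given here. The median change of the tested members was -0.66 in U (-0.50 with genes at 0 in a group set to their bound) and -0.38 in DU.

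Prss32 in U had 8.29 to 55.7 CPM in the 6 controls, and 0 in 3 knockouts and 0.288 CPM in the fourth. The change was -7.64 ± 0.87 (adjusted p = 8.84e-05). In DU its controls had 5.06, 19.1, 24.6 and 30.6 CPM and all 3 knockouts had no count, at least 342-fold lower (adjusted p = 0.00281). Tmprss11e in U had 2.13 to 15.9 CPM in the controls and 0 to 0.102 CPM in the knockouts, a change of -7.46 ± 1.02 (adjusted p = 0.000164). In DU it had 4.92, 6.80, 8.31 and 9.10 CPM in the controls and no count in 3 knockouts, at least 126-fold lower (adjusted p = 0.000332). So the groups of these 2 genes were apart in both preparations.

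Tmprss11g in DU had 19.0, 21.2, 23.2 and 37.4 CPM in the controls and 0.524, 0.929 and 2.23 CPM in the knockouts, a change of -4.37 ± 0.57 (adjusted p = 0.000714). In U its controls had 9.68 to 35.9 CPM and its knockouts 0.922, 1.18, 1.63 and 1.64 CPM, a change of -4.18 ± 1.26 that was not called (adjusted p = 0.0609) although the groups do not overlap. The U fit shares 1 spread over all U groups, including the library of mouse 33, and with the 2 groups compared alone the adjusted p was 0.000388. That smaller fit leaves out all libraries of D3.5, and the part of mouse 33 alone in this comparison was not tested. Tmprss11a, which was almost absent from LE, had 0.753, 0.981, 1.02 and 1.13 CPM in control DU and no count in 3 knockouts, at least 16.8-fold lower (adjusted p = 0.00214).

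Tmprss6 fell in both preparations. In U it had 8.00 to 29.2 CPM in the controls and 3.26, 5.58, 7.41 and 8.50 CPM in the knockouts, a change of -1.74 ± 0.33 (adjusted p = 0.00323). In DU it had 16.8 to 23.9 CPM against 3.35, 4.80 and 10.7 CPM, a change of -1.74 ± 0.34 (adjusted p = 0.00861). Tmprss4 fell by 1.13 in U and by 0.94 in DU on the log2 scale (adjusted p = 0.00736 and 0.0442), with 202 and 92.1 CPM on average in the U groups. Tmprss11b fell by 3.78 in U and by 2.75 in DU (adjusted p = 0.0163 and 0.0236). Prss8 fell by 0.82 in DU (adjusted p = 0.0454). Prss35 rose by 2.15 ± 0.59 in U (adjusted p = 0.0382). The call of Tmprss4 in U was kept in all 15 other settings (adjusted p of at most 0.0308), while the others named after Tmprss6 lost theirs when single libraries were left out. For Tmprss11b in U that held without mouse 25, 26 or 27 (adjusted p of 0.0507 to 0.0726), and for Prss35 without mouse 1, 2, 3, 5, 8, 21 or 26 (0.0524 to 0.264). In DU it held for Tmprss4 without mouse 5, 8, 25, 26 or 27 (0.0745 to 0.125), for Tmprss11b without the same 5 mice (0.0531 to 0.075) and for Prss8 without mouse 5, 8, 9, 25 or 27 (0.0664 to 0.154). With the 2 groups compared alone, Prss35 in U (0.0681), Prss8 in DU (0.0998) and Tmprss11b in DU (0.0502) were not called either. Klk10 was higher in knockout DU (3.59 ± 0.90, adjusted p = 0.0295), with 14.5, 26.1 and, in mouse 27, 272 CPM against 2.02 to 16.8 CPM in the controls, and without mouse 27 the change was 1.22 (adjusted p = 0.402). The call of Klk10 in DU was also lost without control mouse 5 (0.0879) or 9 (0.0555), with the 2 groups compared alone (0.101), with DESeq2 (0.0554) and with limma on TPM (0.0713).

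At D3.5 the knockout effect in LE included other genes, led by Tmprss6, Tmprss13 and Prss23. There 7 of 31 members were called, 5 higher and 2 lower in knockouts, beside 13.5% of all genes (7.79% higher, 5.7% lower), and in 6 of the 7 the groups did not overlap, beside 8% of all genes called without overlap. Tmprss6 had 0.262, 0.321, 0.379 and 0.507 CPM in the controls and 6.74 to 12.6 CPM in the 6 knockouts, a change of 4.64 ± 0.63 (adjusted p = 1.32e-05). Tmprss13 had 0.0872, 0.504, 0.509 and 1.22 CPM in the controls and 7.43 to 20.1 CPM in the knockouts, a change of 4.29 ± 0.76 (adjusted p = 0.000305). In these 2 genes the controls had fallen by D3.5, while the knockouts were not called between days. Tmprss6 had means of 11.2 CPM at D0.5 and 9.27 CPM at D3.5 in the knockouts, and Tmprss13 had 7.33 and 10.9 CPM.

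Prss23 was the most abundant member that fell. It had 427, 525, 652 and 671 CPM in control LE and 84.8 to 207 CPM in the knockouts, whose median was 118 CPM, a change of -2.12 ± 0.35 (adjusted p = 0.000131) without overlap. At D0.5 it had 50.6 to 264 CPM in controls and 96.04 to 266 CPM in knockouts, so the high level was that of the control at D3.5. Of its stretches of 31 bases 22.1% are shared with the antisense gene Prss23os, and no source used here states whether counting used the strand. Prss33 had 4.28, 5.01, 7.94 and 9.10 CPM in the controls and 0.328 to 1.55 CPM in the knockouts, a change of -3.004 ± 0.69 (adjusted p = 0.00662).

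The other 3 called members were higher in knockouts. Tmprss4 had 18.7, 24.3, 26.9 and 29.5 CPM in the controls and 27.2 to 72.0 CPM in the knockouts, a change of 1.04 ± 0.27 (adjusted p = 0.011), and its ranges overlap. Prss30 had 0 counts in the 4 controls and 0.783 CPM on average in the knockouts, at least 20.8-fold higher (adjusted p = 0.000172). Klk9 had 0 counts in the controls and 0.589 CPM in the knockouts, at least 15.6-fold higher (adjusted p = 0.00284). Tmprss2 had 237 CPM in the controls and 380 CPM in the knockouts, and Prss8 had 149 and 122 CPM, and neither was called.

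Libraries of mice 35, 36 and 37, with the high stratified epithelium sums, were all knockouts of D3.5. With 11 of 12 such markers tested, 3 were higher in that group. Without these 3 libraries 5 of the 7 members called above were still called: Tmprss4 (0.74, adjusted p = 0.161) and Prss33 (-2.64, adjusted p = 0.0962) were not. The other tested members are not counted there, and the share of all genes called is not given here. Whether the calls were lost through the smaller knockout group or through the content of these libraries was not tested. Gland markers were higher in knockout LE too, 3 of 7 genes, with sums of 88.5 to 185 CPM against 34.1 to 58.1 CPM. The part of the gland markers in these results was not tested.

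**Figure D3:**
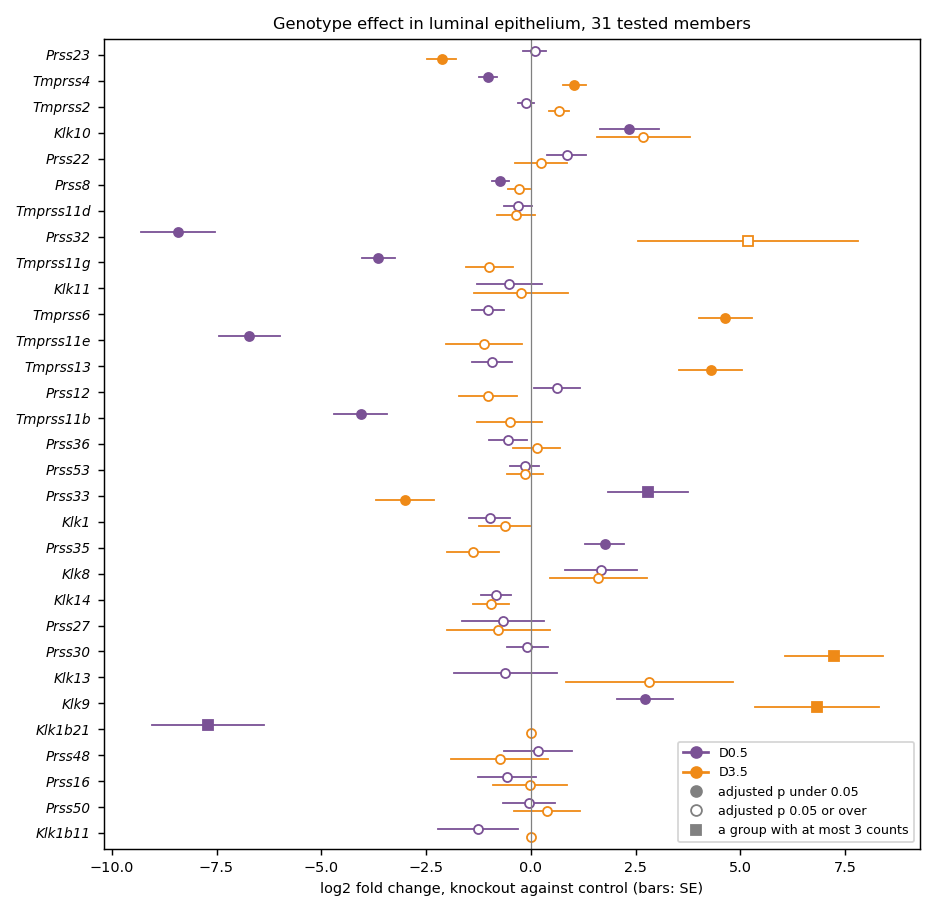
Log2 fold change ± SE, knockout against control, of the 31 members tested in LE at D0.5 and at D3.5. Filled symbols are called at an adjusted p under 0.05 and squares mark genes with at most 3 counts in a group. Prss32, Tmprss11e, Tmprss11b and Tmprss11g lie far to the left at D0.5, and Tmprss6 and Tmprss13 lie to the right at D3.5.

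The change of the knockout effect from D0.5 to D3.5 was itself tested, and in LE 11 of 31 members were called, 8 with a higher and 3 with a lower difference, beside 16.5% of all genes (9.52% higher, 6.99% lower). The difference was 5.67 for Tmprss6 (adjusted p = 6.11e-06), 5.22 for Tmprss13 (adjusted p = 0.000164) and 2.06 for Tmprss4 (adjusted p = 0.000161), all on the log2 scale. It was -2.22 for Prss23 (adjusted p = 0.000827) and -3.14 for Prss35 (adjusted p = 0.00566). Tmprss11g had a difference of 2.65 (adjusted p = 0.00816), Tmprss11b of 3.55 (adjusted p = 0.0151) and Tmprss11e of 5.60 (adjusted p = 0.00179). For Tmprss11e it was 4.68 (adjusted p = 0.0809) without mice 35, 36 and 37. In Tmprss11g, Tmprss11b and Tmprss11e the knockouts were lower in LE at D0.5 and not called at D3.5, when the controls had fallen too. In U 1 of 29 members was called, Tmprss6 with a difference of 2.51 (adjusted p = 0.00995), beside 1.43% (0.943% higher, 0.487% lower). Without mouse 33 it was 2.54 (adjusted p = 0.0084), and Tmprss11g was called too (-2.77, adjusted p = 0.0226). In DU 0 of 27 were called by edgeR beside 1.88% (0.945% higher, 0.932% lower), with 2 at an unadjusted p under 0.05, while DESeq2 called 3, limma voom 2 and limma on TPM 1. The shares of all genes that these other methods called are not given here.

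At D3.5 Tmprss11g and Tmprss11a were low in LE of both genotypes but present in whole uterus of controls. They were called lower in knockouts in DU, and in U only without the library of mouse 33. Tmprss11g in DU had 24.5, 24.6 and 35.2 CPM in the controls and 0.125, 0.334 and 1.29 CPM in the knockouts, a change of -5.64 ± 0.63 (adjusted p = 0.00149). Tmprss11a in DU had 1.57, 2.44 and 3.49 CPM in the controls and 1 count in 1 of 3 knockouts (0.0415 CPM), and was called lower (adjusted p = 0.0038). These were the 2 members called of 27 in DU at D3.5, beside 0.574% of all genes (0.117% higher, 0.457% lower). The groups of both do not overlap, which held for every gene called there (0.574% of all genes).

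In U at D3.5 0 of 29 members were called by edgeR, beside 0.0185% of all genes (0.0185% higher, 0% lower), with 5 at an unadjusted p under 0.05 and 1 called by DESeq2. The share of all genes that DESeq2 called there is not given here. Tmprss11g had 16.5, 18.2, 19.3, 20.3 and 35.4 CPM in the controls, 0.0436, 0.109, 0.143 and 0.425 CPM in 4 knockouts and 32.5 CPM in the library labelled knockout, mouse 33. With that library the change was -1.75 ± 1.03 (adjusted p = 1), and without it -6.96 (adjusted p = 8.09e-07). Tmprss11a had 1.58 to 5.36 CPM in the controls, 0 to 0.0286 CPM in 4 knockouts and 1.99 CPM in mouse 33. Its change without mouse 33 was -7.76 (adjusted p = 0.00162), and that of Tmprss11b was -3.46 (adjusted p = 0.0298). Without this library 3 members and 112 genes in all (0.693%) were called in U at D3.5.

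In control LE at D3.5 Tmprss11g had only 0.229, 0.392, 0.875 and 1.52 CPM and Tmprss11a had at most 0.0436 CPM. Between control LE and control U of that day Tmprss11g differed by -4.57 ± 1.04 (adjusted p = 0.000311) and Tmprss11a by -7.13 ± 1.65 (adjusted p = 0.00049). At D0.5 Tmprss11g had been higher in control LE than in control U (1.71 ± 0.68, adjusted p = 0.0354), so that the direction was opposite on the 2 days. The D0.5 value was not called without mouse 1, 4 or 9 (adjusted p of 0.0523 to 0.0653) and was called with the mouse as a block (1.82, adjusted p = 3.02e-05). Gland markers were lower in LE than in U at D3.5 in 5 of 7 genes, and their sum was 34.1 to 58.1 CPM in control LE and 125 to 251 CPM in control U. In U the gland sum of the knockouts, mouse 33 included, was 111 to 195 CPM, and 0 of 7 gland markers was called between genotypes. In DU it was 105 to 118 CPM in knockouts against 136 to 177 CPM in controls, with 2 of 7 markers lower. The part of gland content in the protease results was not tested.

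The implantation serine proteinases Prss28 and Prss29, secreted by uterine glands, also appeared outside the lumen at D3.5, but at very unequal levels. Prss29 in control U had 0.129, 0.602, 0.904, 4.15 and, in mouse 13, 39.4 CPM, and Prss28 had 0.043, 0.173, 0.734, 1.99 and, again in mouse 13, 20.3 CPM. In knockout U of that day Prss29 was at most 0.409 CPM and Prss28 at most 0.153 CPM, and mouse 33 held both of these highest values. The change of Prss29 in U was not called with that library (-6.93 ± 1.59, adjusted p = 0.193), and without it the other 4 knockouts had no count (adjusted p = 0.0702). In control DU Prss29 had 0, 0.386 and 4.31 CPM and Prss28 had 0.170, 0.579 and 1.32 CPM, while the 3 knockouts had no count of either gene. The control means were 33.6-fold (Prss29) and 14.8-fold (Prss28) above a floor of 3 counts over the knockout group. For Prss29 that mean rests mostly on the library with 4.31 CPM, and the control with 0 did not differ from the knockouts. Neither gene passed the filter on low counts in DU, so neither was tested there. In control U at D0.5 Prss29 had 3 counts in 1 of 6 libraries (0.165 CPM) and none in the others, so it passed the filter in U only through the controls of D3.5.

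**Figure D4:**
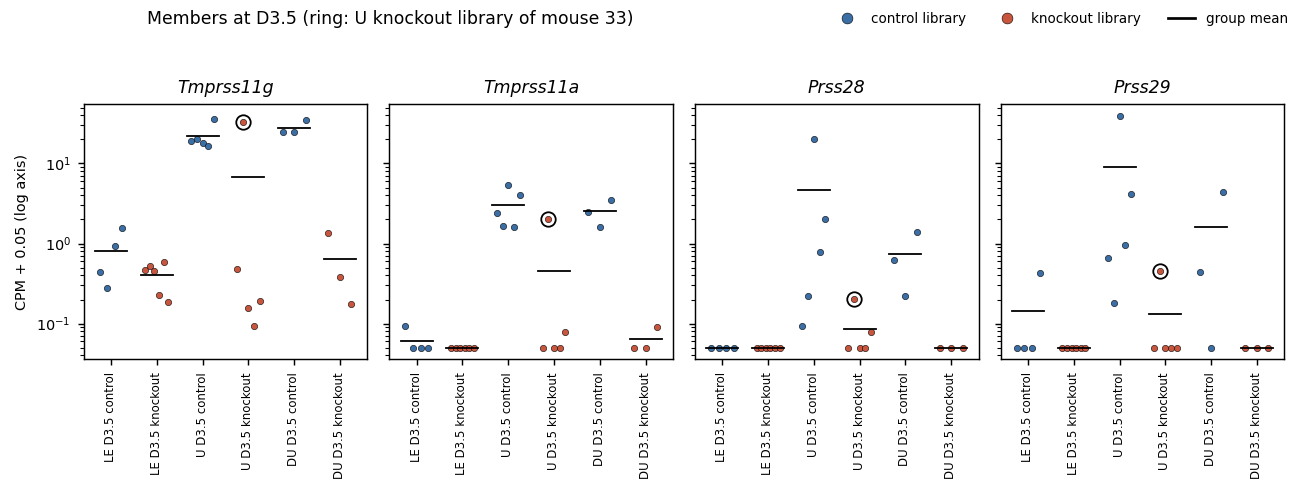
CPM of Tmprss11g, Tmprss11a, Prss28 and Prss29 at D3.5 in every library of LE, U and DU, control and knockout, on a log axis after adding 0.05. The ring marks the U library labelled knockout, mouse 33, which lies among the controls for Tmprss11g and Tmprss11a.

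From D0.5 to D3.5 most changes in control LE were falls, and 7 of the 8 tested Tmprss genes were among them. Of 31 members 18 were called, 3 higher and 15 lower at D3.5, beside 44% of all genes (21.2% higher, 22.8% lower), and their median change was -2.60 (-2.34 with bounds) against 0.00 over all genes. Tmprss4 went from a median of 536 CPM to 18.7, 24.3, 26.9 and 29.5 CPM, a change of -4.38 ± 0.32 (adjusted p = 2.44e-11). Tmprss11g fell by 6.52 ± 0.60 (adjusted p = 1.54e-09), from 66.1 to 0.754 CPM on average. Tmprss11d went from 23.7 to 185 CPM at D0.5 to 1.94 to 3.46 CPM at D3.5, a change of -5.12 ± 0.53 (adjusted p = 1.46e-08). Tmprss6 fell by 5.95 ± 0.66 (adjusted p = 3.9e-08), Tmprss13 by 4.64 ± 0.75, Tmprss11e by 6.03 ± 0.92 and Tmprss11b by 4.66 ± 0.85. Tmprss2 is the abundant Tmprss gene that was not called in control LE, with 178 CPM at D0.5 and 237 CPM at D3.5.

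Among secreted members of control LE, Prss32 went from 67.3 CPM to no count in 4 libraries, at least 1787-fold lower (adjusted p = 5.29e-07). Prss22 fell by 2.60 ± 0.66 (adjusted p = 0.00203) and Klk10 by 5.47 ± 1.19 (adjusted p = 0.000498). Prss23 rose from 139 to 568 CPM, a change of 2.03 ± 0.31 (adjusted p = 5.74e-06). Prss33 had no count in 9 libraries at D0.5 and 6.58 CPM at D3.5, at least 534-fold higher (adjusted p = 2.99e-08). It passed the filter on low counts in LE only through libraries of D3.5, so it was tested because it was high there. The third riser was Prss53, with 1.02 and 2.14 CPM (1.07 ± 0.39, adjusted p = 0.0287). Prss53 shares 75.3% of its stretches of 31 bases with an overlapping gene model, so its counts are uncertain.

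In knockout LE 13 of 31 members were called between days, 5 higher and 8 lower, beside 41.6% of all genes (21.4% higher, 20.2% lower), with a median of -0.37. Tmprss11d fell by 5.18 ± 0.45 (adjusted p = 1.16e-09), beside 5.12 in the controls, and Tmprss4 fell by 2.32 ± 0.24 (adjusted p = 2.36e-08). Tmprss11g fell by 3.87 ± 0.47 (adjusted p = 2.64e-07), Prss22 by 3.21 ± 0.58 (adjusted p = 6.79e-05) and Klk10 by 5.14 ± 0.94 (adjusted p = 7.98e-05). Tmprss2 rose from 124 to 232 CPM at D0.5 to 297 to 672 CPM at D3.5, a change of 1.21 ± 0.21 (adjusted p = 3.26e-05), and Prss8 rose by 0.84 ± 0.23 (adjusted p = 0.00433). Prss35 fell by 2.69 ± 0.57 (adjusted p = 0.000393). Prss23, with 149 and 131 CPM, was not called. The same 7 members fell in LE of both genotypes (Klk10, Klk11, Klk1b11, Prss22, Tmprss11d, Tmprss11g and Tmprss4) and 2 rose in both (Prss33 and Prss53). The shares of all genes called the same way in both genotypes were not computed.

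**Figure D5:**
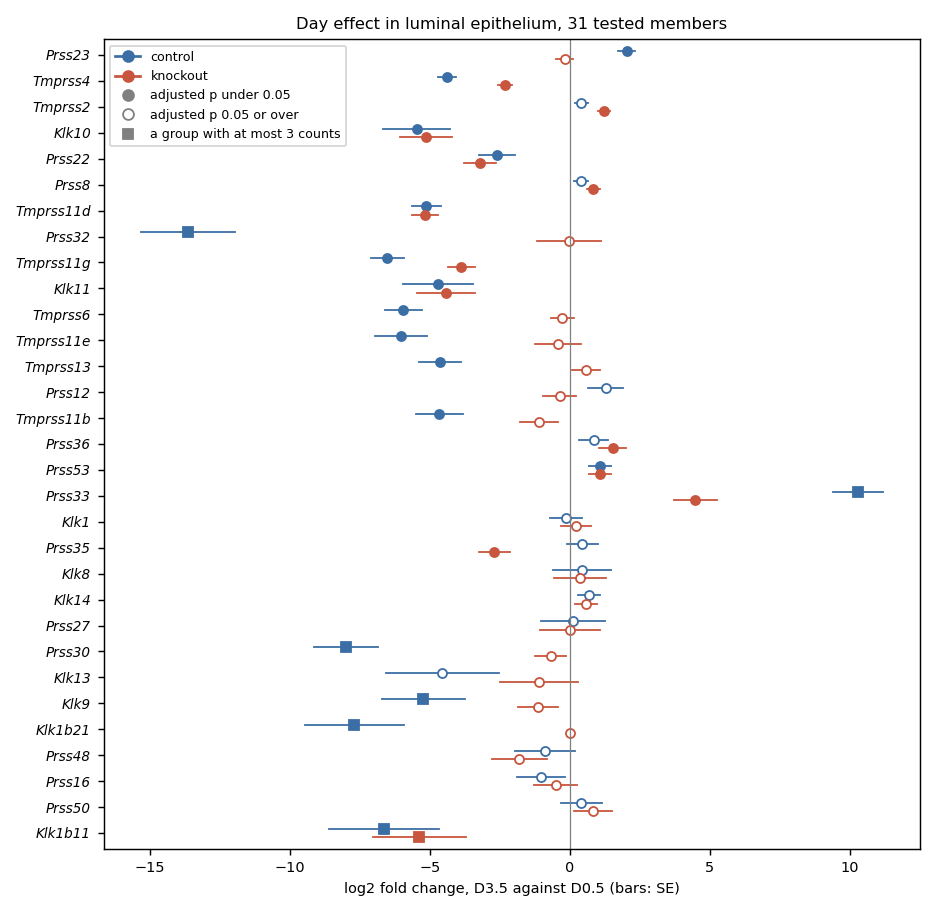
Log2 fold change ± SE, D3.5 against D0.5, of the 31 members tested in control LE and in knockout LE. Filled symbols are called at an adjusted p under 0.05 and squares mark genes with at most 3 counts in a group. Tmprss11d lies at about the same place in both genotypes, and Prss23 lies to the right in controls, at 2.03.

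In whole uterus, too, more members were lower than higher at D3.5. Of the members tested, 16 of 29 were called in control U (4 higher, 12 lower), beside 34.2% of all genes (16.2% higher, 18% lower). In knockout U 10 of 29 were called (2 higher, 8 lower), beside 25.5% (10.9% higher, 14.6% lower), and 11 were called without mouse 33 (2 higher, 9 lower), beside 24.3%, with Tmprss11g as the added one. In control DU 16 of 27 were called (3 higher, 13 lower), beside 34.4% (15.9% higher, 18.5% lower), and in knockout DU 10 of 27 (3 higher, 7 lower), beside 30.2% (12.9% higher, 17.3% lower). Klk10, Klk11, Prss22, Tmprss11d and Tmprss4 were the 5 members called lower in all 6 day comparisons of LE, U and DU, and Prss53 was the 1 called higher in all 6. The shares of all genes called the same way in all 6 were not computed, and the tissues shared mice. Limma on TPM did not call Klk11 in knockout U (adjusted p = 0.0692), control DU (0.0765) or knockout DU (0.0639). Left-out libraries ended the call of Tmprss11d in knockout DU (without mouse 27 or 35, adjusted p of 0.0766 and 0.0557). For Prss53 they ended it in control LE (without mouse 11 or 15, 0.139 and 0.0514), knockout LE (mouse 25 or 36, 0.0528 and 0.0552), control DU (mouse 11, 0.0601) and knockout DU (mouse 32, 0.0646). Tmprss4 fell by 4.64 ± 0.26 in control U, by 3.68 ± 0.26 in knockout U, by 4.51 ± 0.32 in control DU and by 3.95 ± 0.32 in knockout DU. Prss22 fell by 5.10 ± 0.71 in control U and 4.55 ± 0.70 in knockout U. Without mouse 33 the falls in knockout U were 3.61 for Tmprss4 (adjusted p = 4.56e-08) and 4.34 for Prss22 (adjusted p = 0.000222).

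Markers of epithelium fell in whole uterus over the same days. All 6 general epithelial markers were lower at D3.5 in control U (median -2.76) and in control DU (-2.70), as were 4 of 6 in knockout U (-1.11) and 5 of 6 in knockout DU (-1.56). Their sum had a median of 3172 CPM at D0.5 and 514 CPM at D3.5 in control U, and of 1815 and 720 CPM in knockout U. In control DU it went from 2490 to 591 CPM and in knockout DU from 1788 to 512 CPM. Of 5 luminal markers 2 were higher and 1 lower in control U. Of 7 neutrophil markers 6 were lower in control U, knockout U and control DU and 7 in knockout DU. The values of knockout U at D3.5 include mouse 33. The part of these shifts in the day changes of the proteases was not tested.

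Prss12, which cleaves agrin at synapses, rose in whole uterus. In control U it had 2.45 to 6.01 CPM at D0.5 and 9.16, 10.7, 12.3, 13.6 and 13.9 CPM at D3.5, a change of 1.84 ± 0.26 (adjusted p = 1.58e-05). In knockout U the change was 2.41 ± 0.31 (adjusted p = 7.72e-06), in control DU 1.91 ± 0.33 (adjusted p = 0.000605) and in knockout DU 1.79 ± 0.37 (adjusted p = 0.00264). In LE its ranges at D0.5 and D3.5 overlap, with 1.01 to 17.9 and 5.16 to 31.1 CPM in the controls, and it was not called. Prss23, which rose in control LE, fell in control DU (-0.87 ± 0.27, adjusted p = 0.0238), in knockout DU (-0.91 ± 0.29, adjusted p = 0.0281) and in knockout U (-0.84 ± 0.25, adjusted p = 0.0175). None of these 3 calls held in every subset. It was lost in control DU without mouse 1, 8, 11 or 14 (adjusted p of 0.056 to 0.0952), in knockout DU without mouse 26, 32, 34 or 35 (0.0608 to 0.144) and in knockout U without mouse 26 (0.0874). Without mouse 33 the fall of Prss23 in knockout U was -0.76 (adjusted p = 0.0381) and the rise of Prss12 was 2.47 (adjusted p = 1.26e-05).

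Control LE and control U were compared in a joint fit, on 16665 genes of which 36 were members. At D0.5 18 members were called, 13 higher and 5 lower in LE, beside 46.6% of all genes (20.2% higher, 26.4% lower). At D3.5 20 were called, 12 higher and 8 lower, beside 50.1% (23.5% higher, 26.5% lower). On both days the higher members included Prss8, Tmprss2, Tmprss4, Klk1 and Prss27, which is 5 genes, and the lower ones included Prss53, Tmprss11a and Tmprss9, which is 3. The call of Klk1 at D0.5 was lost without mouse 1 (adjusted p = 0.09) or, in U, mouse 9 (0.0676). Prss8 differed by 1.45 ± 0.24 at D0.5 (adjusted p = 3.03e-06) and by 2.90 ± 0.30 at D3.5 (adjusted p = 1.93e-10). Tmprss2 differed by 1.04 ± 0.20 (adjusted p = 3.77e-05) and 2.33 ± 0.25 (adjusted p = 5.48e-10), and Tmprss4 by 1.60 ± 0.22 (adjusted p = 5.44e-08) and 1.98 ± 0.27 (adjusted p = 7.48e-08).

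At D3.5 Prss23 was higher in control LE than in control U (2.46 ± 0.35, adjusted p = 2.11e-07), and so was Prss22 (3.85 ± 0.73, adjusted p = 2.96e-05). Tmprss6 was lower in LE (-2.47 ± 0.54, adjusted p = 0.0002). Members lower in LE at D0.5 included Prss34, a protease of basophils and mast cells, and Prss57, a protease of neutrophil granules, both at most 1.38 CPM in every U library of control mice at D0.5. LE and U of 1 number came from 1 animal, and with the mouse as a block 19 members were called at D0.5, beside 47.5% of all genes, and 16 at D3.5, beside 44.6%. At D0.5 Tmprss13 (0.39, adjusted p = 0.406), Klk1b21 (1.62, adjusted p = 0.252), Klk13 (1.85, adjusted p = 0.495) and Prss27 (2.03, adjusted p = 0.111) were then not called, while Prss22 (1.49, adjusted p = 0.00129), Klk10 (2.01, adjusted p = 0.000455), Klk11, Klk1b11 and Tmprss6 were. At D3.5 Klk9 (-2.66, adjusted p = 0.242), Klk14, Prss27, Prss50 and Tmprss9 were not called with the block, and Prss57 was (-6.21, adjusted p = 0.0127).

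Between DU and U, the digested and undigested pieces, 0 of 30 members were called by edgeR without a block, beside 0% of all genes, with 3 at an unadjusted p under 0.05. With the mouse as a block, 8 members were called, 4 higher and 4 lower in DU, beside 42.6% of all genes. The larger changes were those of rare members: Prss48 was higher by 1.84 ± 0.55 (adjusted p = 0.0178), Klk1 lower by 1.15 ± 0.36 (adjusted p = 0.0216) and Klk8 lower by 0.66 ± 0.19 (adjusted p = 0.0164), and Tmprss11b was higher by 0.86 ± 0.32 (adjusted p = 0.0421). Tmprss4 was lower in DU by 0.39 ± 0.06 (adjusted p = 0.00138) and Prss8 was lower by 0.52 ± 0.08 (adjusted p = 0.00136). Tmprss11g was higher in DU by 0.48 ± 0.16 (adjusted p = 0.0296) and Tmprss11d by 0.23 ± 0.08 (adjusted p = 0.0266).

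The enzymes, inhibitors and substrates around these proteases were read from 3 gene lists. Of 16 tested related serine proteases, 3 were higher and 3 lower in knockout LE at D0.5, beside 23.6% of all genes called. Hgfac, the activator of hepatocyte growth factor, went from 411 to 67.4 CPM (-2.61 ± 0.29) and Hpn, the membrane protease hepsin, from 35.0 to 97.3 CPM (1.47 ± 0.19), both without overlap. At D3.5 2 of 16 were called, both higher, beside 13.5% of all genes. Hgfac had 0.401 CPM in control LE and 6.02 CPM in knockout LE (3.98 ± 0.48), and Hpn differed by 0.98 ± 0.25. In U at D0.5 2 of 18 were called, both lower: Hgfac (-3.02 ± 0.48) and Pcsk6 (-1.34 ± 0.33), a proprotein convertase. In DU 1 of 17 was higher and 2 were lower. The shares of all genes called at D0.5 were 4.98% in U and 8.06% in DU.

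Of 16 tested inhibitors, 2 were higher and 2 lower in knockout LE at D0.5, beside 23.6% of all genes called. At D3.5 1 was higher and 3 were lower, beside 13.5% of all genes. Serpine2, protease nexin, had 56.9 CPM in control and 10.8 CPM in knockout LE at D3.5 (-2.39 ± 0.63), and Serping1, the C1 inhibitor, fell by 1.46 ± 0.37. Spink1, a trypsin inhibitor that also stands in the gland marker list, had 1.48 and 16.4 CPM at D3.5 (3.47 ± 1.01). In U at D0.5 1 of 15 was higher and 1 lower, beside 4.98% of all genes, and in DU 1 of 15 was higher, beside 8.06%.

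Of 16 tested substrates and receptors, 3 were higher and 3 lower in knockout LE at D0.5, beside 23.6% of all genes called. At D3.5 3 were higher and 1 lower, beside 13.5% of all genes. All 3 higher genes on each day were subunits of the epithelial sodium channel, a target of prostasin. Scnn1g had 0.976 ± 0.621 CPM (n = 9) in control and 46.0 ± 28.3 CPM (n = 7) in knockout LE at D0.5 (5.57 ± 0.72), without overlap. Scnn1a rose by 1.61 ± 0.29 at D0.5 and by 1.56 ± 0.39 at D3.5. Epcam, an adhesion protein cut by membrane serine proteases, fell by 1.06 ± 0.20 at D0.5 and by 0.98 ± 0.25 at D3.5. In U at D0.5 2 of 18 were higher and 2 lower, beside 4.98% of all genes, and in DU 3 of 18 were higher, beside 8.06%. None of the genes of these 3 lists was called in U or DU at D3.5, when 0.574% of all genes were called in DU. In U that comparison included mouse 33, and 3 of all 16232 genes were called in it.

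The remaining members were rare. The 52 that stayed below 1 CPM in every group were 27 Prss, 18 Klk and 7 Tmprss genes. Markers of male germ cells had a median sum of at most 0.84 CPM in every group. Klk1b11 was called lower at D3.5 in LE of both genotypes, from 0.509 and 0.234 CPM to no count in any of the 10 libraries.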

How the data were processed

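RNA-seq libraries of LE, U and DU were used as 2 tables of 21706 genes. The first holds estimated counts made by the authors with kallisto 0.46.1 for build GRCm39, per the submitters' processing notes, and the second holds TPM values that the authors deposited from the same quantification. Strand and annotation release are not named there. Estimated counts were rounded to whole numbers. Per tissue, genes were kept by filterByExpr (minimum count 10, minimum total 15), scaled by TMM and tested with edgeR 4.0.16 (quasi-likelihood, R 4.3.3), with all groups of a tissue sharing 1 spread and Benjamini-Hochberg adjustment over all genes tested. LE with U, and DU with U, were also fitted jointly. LE and U of 17 mice, and DU and U of 13 mice, came from the same animal, so the mouse was fitted as a block in the alternative. Deviations from the group means of the same mouse correlated at -0.23 to 0.51 (median 0.34) between LE and U and at 0.13 to 0.73 (median 0.41) between DU and U. Alternatives were DESeq2 1.42.0 (its size factors, and its Wald test), limma 3.58.1 (voom with sample weights, and log2(TPM + 1) at a mean TPM of at least 1), no filter, only the groups compared, and each library left out. Scripts were tested on simulated data. No pair of libraries of 1 group was identical: in 134 pairs the smallest chi-square per degree of freedom was 9.76. Labels name separate mice, whose numbers are used here. Stretches of 31 bases were compared between annotated transcripts of GRCm38. Members and lists were chosen with earlier results of these data known. Named in the text are members called between genotypes with at least 10 CPM in the higher group, up to 4 per direction and day or tissue comparison with 10 CPM, Prss8, Prss22, Prss23, Prss28, Prss29, Prss32, Prss35, Prss12, Klk1, Tmprss2, Tmprss4 and Tmprss13, Esr1, and up to 5 called members below 10 CPM. Others, such as Tmprss11d, Tmprss11a, Klk11 and Prss53, were chosen after their values were seen.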

Additional observations from a re-analysis of the deposited data

Results flagged for a closer look

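Groups of 4 to 10 libraries in which a member had a mean of at least 10 CPM gave 70 combinations of member and group. Of these, 9 held a library far from the others by Dixon's test at the 95% level. For normal values about 1 in 20 would be flagged (3.5 of 70). The test was run on CPM without a log scale, and a high library can itself lift a group over 10 CPM, so that rate need not hold here. The knockout of mouse 27 at D0.5 accounted for 3 of them: Klk10 had 952 CPM in its LE library (18.7 to 133 CPM in the other 6) and 253 CPM in its U library (9.82 to 21.2 CPM in the other 3), and Klk11, the next gene, had 99.2 CPM in LE (2.42 to 17.2 CPM). Its DU library, in a group too small for the test, had 272 CPM of Klk10. Prss22 had 280 CPM in LE of control mouse 1 (21.6 to 149 CPM in the others) and 132 CPM in U of control mouse 8 (19.2 to 57.2 CPM), both at D0.5. At D0.5 Tmprss13 had 44.5 CPM in LE of control mouse 7 (1.42 to 18.3 CPM), and Tmprss11e had 41.4 CPM in LE of control mouse 3 (9.49 to 21.7 CPM). At D3.5 Tmprss2 had 672 CPM in LE of knockout mouse 34 (297 to 348 CPM), and Tmprss11g had 35.4 CPM in U of control mouse 16 (16.5 to 20.3 CPM).

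The knockout effect differed between D3.5 and D0.5, by the interaction term of edgeR's quasi-likelihood test, for 11 members in LE and 1 in U, as log2 differences of the effect at D3.5 minus that at D0.5. In LE it was higher at D3.5 by 5.67 for Tmprss6, 5.22 for Tmprss13, 2.06 for Tmprss4, 2.65 for Tmprss11g, 3.55 for Tmprss11b, 5.6 for Tmprss11e, 7.32 for Prss30 and 13.6 for Prss32. For Tmprss11g, Tmprss11b, Tmprss11e and Prss32 the knockouts were lower at D0.5 and not called at D3.5, when the controls had fallen too. The difference between days was negative for 3 members. It was -2.22 for Prss23, -3.14 for Prss35 and -5.81 for Prss33. In U it was 2.51 for Tmprss6. The values for Prss30, Prss32 and Prss33 rest on groups without counts and are fitted values, not sizes: the difference of Prss32 was not called without mice 35, 36 and 37, and that of Prss33 was not called without mouse 21. With limma voom the difference of Tmprss11g had an adjusted p of 0.143.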

How the results depend on the processing

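Over all 18 comparisons, 746 of 793 values of named members kept their direction and side of the threshold under the other settings, 43 lost and 3 gained the call, and 1 changed direction. With a library left out, 1756 of 1878 kept both, 116 lost and 3 gained the call, and 3 changed direction. Apart from a few values of U, only members already called by edgeR with all libraries were counted here. Few values could therefore gain a call, and these tallies do not cover members that were not called. Tests on log2(TPM + 1) moved the median of all genes by up to -0.41 (LE against U, D3.5) and 0.42 (knockout LE by day), and changes there are relative to that shift. They called 6 members in LE at D0.5 between genotypes, 1 in DU at D3.5, 6 in knockout DU by day, 2 for the difference between days in U and 1 in DU, and 13 between LE and U at D3.5. DESeq2 called 1 in U at D3.5 and 3 for the difference in U and 3 in DU, and limma voom 6 and 2 there. The cause of these shifts was not tested. The shares of all genes called by DESeq2 and limma are not given here, so these counts are not a result about the members alone.

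With the mouse as a replicate block, 8 members were called between DU and U, 19 between LE and U at D0.5 and 16 at D3.5. No paired analysis was possible between genotypes or days, because each mouse had 1 genotype and 1 day.

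With single libraries left out, the members called between genotypes numbered 10 to 13 (D0.5) and 7 (D3.5) in LE, 4 to 7 (D0.5) and 0 to 3 (D3.5, 3 without mouse 33) in U, and 5 to 9 (D0.5) and 2 (D3.5) in DU. For the difference between days they numbered 11 to 12 in LE, 1 to 2 in U (2 without mouse 33) and 0 to 1 in DU (1 without mouse 26). For most of these subsets the share of all genes called is not given here. The change of Prss33 in LE at D0.5 ranged from 0 (without mouse 21) to 3.02. Tmprss11g changed direction without mouse 33: by day in knockout U it was 2.30 with all libraries and ranged from -2.93 to 2.62, and its difference in U was 2.43 and ranged from -2.77 to 2.76, or -2.58 with voom. Depth limits members below 1 CPM, where the smallest library, with about 11305100 counts, holds few of them.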
